A study of Mus musculus with 8 samples.

Results

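Ion channel genes were followed in cultured mouse cardiac adipose-derived stem cells (cADSC), with and without the nucleotide UTP, in 4 groups of 2 libraries. They were taken by name: every gene symbol that begins with Kcn (potassium channels and their partners), Scn and a digit (sodium channels), Cacn (calcium channels), Clcn (ClC chloride channels and exchangers), Trpa, Trpc, Trpm or Trpv and a digit (transient receptor potential channels), Ano and a digit (anoctamins) or Piezo. This rule gave 184 of the 52636 genes listed, and no measured value entered it. Of the 184 genes, 177 belong to channel families, and 7 are neighbours by name only (the antisense or opposite-strand transcripts Kcnab3os, Kcnd3os, Kcnmb4os1, Kcnmb4os2, Trpc5os and Kcnq1ot1, and Trpc4ap, which encodes a channel-associated protein). The test was run on genes above 0.5 CPM (a gene's count relative to its library's total, 1 CPM being close to 20 of the scaled counts) in at least 2 of the 8 libraries, a minimum that 97 of the 184 genes passed. The other 87 were given no test: 12 of them had no read in any library, 47 never exceeded 3 scaled counts (these 47 include the 12), and the highest value among the 87 was 15 scaled counts.

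The groups were P2Y2 KO cADSC treated with 100 µM UTP daily for 7 days, P2Y2 KO cADSC left untreated for 7 days, WT cADSC treated with UTP in the same way, and untreated WT cADSC. All cells were the plastic-adherent stromal vascular fraction of collagenase-digested cardiac fat, grown in DMEM with serum. The labels give the strain as C57BL/6J, whereas the methods describe the P2Y2 KO mice as CD1/C57BL/6J, and cells came from male and female mice of 12 to 16 weeks taken at random. The methods speak of 2 RNA pools and of 2 cultures for each condition and do not say whether each pool holds cultures of its own, so the spread between the 2 libraries of a group is called a spread between pools. No label says which mice went into which pool.

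An ion channel lets a chosen ion cross a membrane down its gradient, and auxiliary subunits set where and when the pore opens. Stromal and smooth muscle cells are known for channels that sense stretch and calcium, whereas macrophages, which adhere to plastic and travel with stromal cells, are known for the potassium channels KCa3.1 (Kcnn4), Kv1.3 (Kcna3), TWIK-2 (Kcnk6) and THIK-1 (Kcnk13) and the cation channels TRPM2 and TRPV2. UTP acts on the G protein-coupled receptors P2Y2 and P2Y4, which release calcium from internal stores.

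The values are scaled counts: gene counts that the authors multiplied by a single factor per library, so that each library has nearly the same total (20008555 to 20015454) and 20 scaled counts are close to 1 CPM. With the factor undone, the libraries held 18599802 to 22018287 counted reads. P2ry2, the targeted gene, had 274 and 301 scaled counts in the UTP-treated libraries labelled P2Y2 KO and 280 and 311 in the untreated libraries labelled P2Y2 KO, against 328 and 328 in UTP-treated WT and 362 and 347 in untreated WT. Its difference between genotypes in untreated cells missed the test (log2 fold change -0.26, SE 0.10, adjusted p = 0.0925 by edgeR), so gene counts did not check the deletion, and the libraries are called by their label throughout. All 10 mesenchymal markers examined, among them Thy1, Eng and Cd44, were present in every library. So were all 15 macrophage markers, whose levels summed to 3170 and 3340 CPM in KO UTP, 4500 and 3930 CPM in KO untreated, 1570 and 1500 CPM in WT UTP, and 3290 and 2420 CPM in WT untreated. Pool 1 of untreated WT stood apart: it had no read of the 4 Y-linked genes examined, with 9051 scaled counts of Xist, an X-inactivation RNA of female cells. Its 6 epithelial markers summed to 14.4 CPM, against 111 CPM in pool 2 of that group. Pool 1 of each group labelled P2Y2 KO had 2 or 3 scaled counts of Xist, and the remaining 5 libraries had both Xist and Y-linked reads. Adipocyte markers summed to 154 to 316 CPM in the KO libraries and 101 to 133 CPM in the WT libraries, and their part in the genotype differences was not tested. In bulk RNA of this kind, fewer cells of a type and less RNA per cell cannot be told apart.

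The most strongly expressed channel gene per length was Piezo1, a stretch-activated cation channel. Divided by the length of its exons, its mean over the 8 libraries was 51.1 CPM per kb. Cacnb3, a beta subunit that brings voltage-gated calcium pores to the membrane, and Ano6, a calcium-activated lipid scramblase and ion channel, followed at 25.5 and 25.2 CPM per kb and cannot be ranked against each other, since their scaled counts varied between libraries by more than that gap. Clcn7, the chloride-proton exchanger of lysosomes, had 18.4 CPM per kb. Ano10 had 14.7, Kcne4, a small subunit known to restrain several potassium pores, 14.5, Trpm7, a channel fused to a kinase that carries magnesium and calcium, 14.0, Cacna1g, the T-type pore Cav3.1, 11.1, Clcn4, an endosomal exchanger, 10.5, Trpv2 10.2 and Cacng7 10.1 CPM per kb. Trpc4ap, which is no channel, stood among them at 21.4 CPM per kb.

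**Figure D1:**
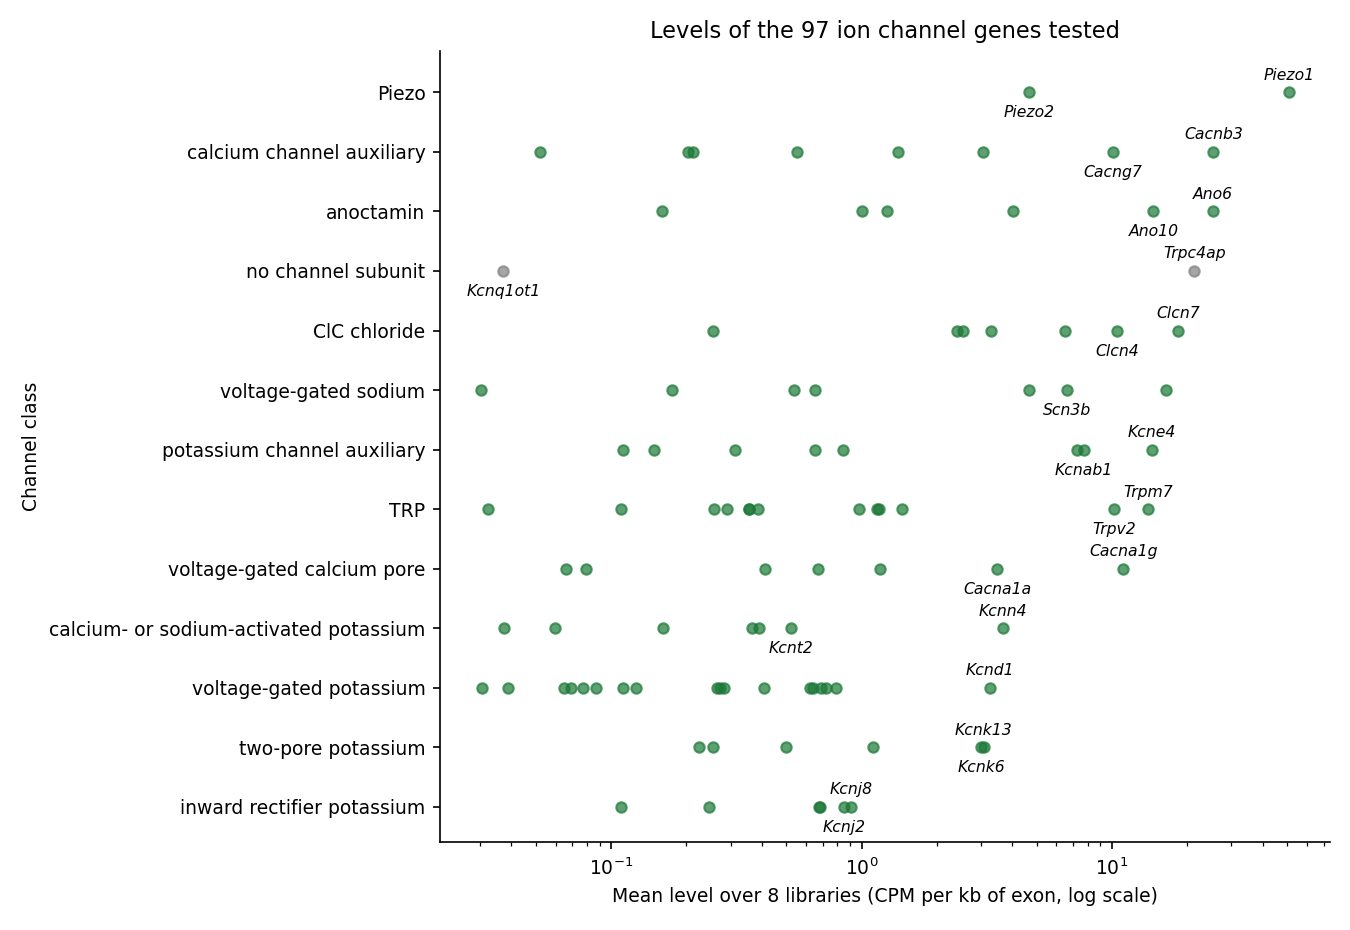
Each point is 1 of the 97 ion channel genes tested, placed by its mean level over the 8 libraries in CPM per kb of exon (log axis), with 1 row per channel class and some of the highest genes of each row named. Piezo1 stands at 51.1 CPM per kb, while the highest inward rectifier, Kcnj8, stands at 0.907; the grey row holds Trpc4ap and Kcnq1ot1, which are no channel subunits.

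Class by class, breadth and level differed. Among 40 voltage-gated potassium channel genes, 18 were tested and 9 averaged at least 1 CPM. Kcnd1 (Kv4.1) led them per length at 3.27 CPM per kb. Of 15 inward rectifiers, 6 were tested, and the highest were Kcnj8, the pore of the vascular ATP-sensitive channel, at 0.907 CPM per kb and Kcnj2 (Kir2.1), a pore that sets the resting potential, at 0.855. Of 14 tandem-pore potassium channels, which carry leak currents, 6 were tested, with Kcnk13 at 3.08, Kcnk6 at 3.01 and Kcnk5 at 1.11 CPM per kb. Among 12 calcium- or sodium-activated potassium genes, Kcnn4 led at 3.68 CPM per kb, ahead of Kcnt2 at 0.521 and Kcnn1 at 0.391. The pore of the large-conductance channel, Kcnma1, known from smooth muscle, reached 0.0375 CPM per kb. Of 14 sodium channel genes, 7 were tested. Among the highest were Scn3b (6.59 CPM per kb), a beta subunit, and Scn7a (4.66 CPM per kb), the atypical channel Nax that is known as a sensor of sodium concentration. The other 7 were under the minimum. Of 22 transient receptor potential genes 13 were tested, of 10 anoctamins 6, of 9 ClC genes 7, of 10 calcium channel pores 7 and of 16 calcium channel auxiliary subunits 8, and both Piezo genes were tested.

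UTP lowered 3 ion channel genes in WT cADSC, all of them known from macrophages, and raised none. They were Kcnk13 and Kcnk6, tandem-pore potassium channels, and Kcnab2, the beta-2 subunit of voltage-gated potassium channels. The 3 genes are 3.09% of the 97 tested, beside 1.08% of all 17529 genes tested that were called lower and 0.143% that were called higher. The median log2 fold change of the 97 ion channel genes was -0.02, against 0.01 over all genes tested.

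Kcnk13 had 80 and 67 scaled counts in UTP-treated WT, against 260 and 177 in untreated WT. The groups did not overlap, and the log2 fold change was -1.57 (SE 0.23, adjusted p = 0.0288 by edgeR's quasi-likelihood test with Benjamini-Hochberg adjustment). Kcnab2 had 388 and 359 scaled counts in UTP-treated WT, against 922 and 662 in untreated WT. It fell by 1.08 on the log2 scale (SE 0.17, adjusted p = 0.0305 by edgeR), again with no overlap. Kcnk6 had 145 and 137 scaled counts in UTP-treated WT, against 306 and 256 in untreated WT. Its log2 fold change was -0.99 (SE 0.15, adjusted p = 0.0305 by edgeR). The untreated pools differed more from each other than the treated pools did for each of the 3 genes, and pool 1 was the higher. Without that pool, 1 of the 3 calls remained (Kcnab2, log2 fold change -0.81, adjusted p = 0.0466 by edgeR), and Kcnk13 had -1.25 with adjusted p = 0.0512. Without pool 2 of untreated WT, 14 ion channel genes were called. With Xist as a covariate, or with the WT libraries fitted alone, the count was 0. Without either UTP-treated WT pool the count was 0, without pool 1 of untreated KO it was also 0, and without either UTP-treated KO pool it was 1.

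The 250 bases before the RefSeq starts of Kcnk13 and Kcnab2 (build GRCm38.p6) are shown because these genes carry the WT result, beside the same window of Trpv2, a channel of the same list. Capitals mark GAGGAA or its reverse complement TTCCTC, the core that PU.1, a transcription factor of macrophages, is known to bind. The windows are chr12:99964249-99964498 on the plus strand for Kcnk13, chr4:152477550-152477799 on the minus strand for Kcnab2, and chr11:62574236-62574485 on the plus strand for Trpv2.
Kcnk13: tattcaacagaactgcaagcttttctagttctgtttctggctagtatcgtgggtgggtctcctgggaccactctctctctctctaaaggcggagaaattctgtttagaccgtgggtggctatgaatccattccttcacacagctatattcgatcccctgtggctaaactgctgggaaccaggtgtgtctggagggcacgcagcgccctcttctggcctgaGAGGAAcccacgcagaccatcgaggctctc
Kcnab2: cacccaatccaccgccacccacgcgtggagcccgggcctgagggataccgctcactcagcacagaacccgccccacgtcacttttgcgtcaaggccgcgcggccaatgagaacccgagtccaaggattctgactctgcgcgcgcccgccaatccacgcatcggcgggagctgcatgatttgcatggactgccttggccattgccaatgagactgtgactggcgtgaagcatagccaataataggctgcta
Trpv2: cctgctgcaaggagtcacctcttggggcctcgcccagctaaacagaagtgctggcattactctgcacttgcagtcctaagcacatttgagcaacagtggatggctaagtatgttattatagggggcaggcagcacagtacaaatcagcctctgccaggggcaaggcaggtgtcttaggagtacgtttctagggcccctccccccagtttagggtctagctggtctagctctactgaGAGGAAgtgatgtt
The letters occur 1 time in the Kcnk13 window and 1 time in the Trpv2 window, and they are not in the Kcnab2 window shown. Kcnab2 and Trpv2 have 3 RefSeq windows each, of which the 1 nearest the start of the annotated gene is shown. RefSeq windows were found for 77 of the 97 genes tested, some with several starts. GAGGAA or TTCCTC stood in 24 of their 112 windows (21.4%), in 5 of the 17 windows of the list known from macrophages (29.4%), and in 7639 of all 32851 windows of the same length (23.3%), so the letters alone did not set the ion channel genes apart.

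A list of 12 ion channel genes known from macrophages held all 3 called genes. Of the 12, 11 were tested (Kcna3, Kcnn4, Kcnj2, Kcnk6, Kcnk13, Kcnab2, Trpm2, Trpm4, Trpv2, Clcn7 and Clcn5), and Kcne3 was under the minimum. In WT cells, 10 of the 11 had a log2 fold change below 0 with UTP, with a median of -0.99, beside 0 called and a median of 0.03 among the other 86 ion channel genes. The list was chosen with earlier results of these data known, so its median is a description. Leaving out each library in turn moved this median between -1.03 and -0.74 and the number called lower between 0 and 6. Without pool 1 of untreated WT the median was -0.81, with 1 gene called. The macrophage markers moved in the same direction: all 15 were below 0 in WT, 10 of them were called lower, and their median was -1.27. The part of macrophage content in these channel values was not tested.

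Kcnn4, the calcium-activated potassium channel KCa3.1, lay just outside the threshold. It had 135 and 98 scaled counts in UTP-treated WT, against 359 and 226 in untreated WT, a log2 fold change of -1.33 (SE 0.25, adjusted p = 0.0507 by edgeR). With the replicate number as a block it was called (adjusted p = 0.00986 by edgeR), but it did not pass in 12 of 17 alternatives. Trpm2, a cation channel opened by ADP-ribose and oxidants, had 27 and 22 scaled counts with UTP and 87 and 52 without (log2 fold change -1.50, SE 0.29, adjusted p = 0.0530 by edgeR). Trpv2, a cation channel of phagocytes, had 628 and 624 scaled counts with UTP and 1263 and 827 without. Neither Kcnn4, Trpm2 nor Trpv2 overlapped between the WT groups, and none passed the test.

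Outside the macrophage list, 12 of 86 ion channel genes had an unadjusted p under 0.05 toward higher values with UTP in WT and 3 toward lower values, 14.0% and 3.49%, and none passed after adjustment. With the list included, the shares over all 97 ion channel genes were 12.4% and 9.28%. Over all 17529 genes tested these shares were 8.67% and 9.07%. The list was chosen with earlier results of these data known, so the shares without it are a description. Kcnd1 had 396 and 367 scaled counts in UTP-treated WT and 277 and 293 in untreated WT (adjusted p = 0.0678 by edgeR). Cacna1f, the calcium pore Cav1.4 known from photoreceptors, had 4 and 4 with UTP and 17 and 14 without, which is under 1 CPM (adjusted p = 0.0656 by edgeR). Piezo1 had 9343 and 9419 scaled counts in UTP-treated WT and 8832 and 9743 in untreated WT, with overlap.

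A fold rule with the thresholds of the study's methods, applied here as a ratio of mean CPM above 2 or below 0.5 in genes above 0.5 CPM in a condition, took 9 ion channel genes in WT, 8 of them lower (Kcnab2, Kcnk13, Kcnn4, Trpm2, Kcna3, Kcnmb1, Cacna1d and Cacna1f). Of the 91 ion channel genes past the minimum, 8.79% were lower and 1.1% higher by this rule, beside 2.09% and 0.993% over all genes. The gene that was higher was Kcnk1 (TWIK-1), a tandem-pore channel of epithelia, at a ratio of 2.00, which is the threshold itself to the digits shown. It had 0 and 5 scaled counts in UTP-treated KO and 2 and 0 in untreated KO, with 31 and 25 in UTP-treated WT against 4 and 24 in untreated WT. The sum of the 6 epithelial markers was distributed alike, with 25.9 and 22.2 CPM in UTP-treated KO, 26.8 and 22.7 CPM in untreated KO, 139 and 136 CPM in UTP-treated WT and 14.4 and 111 CPM in untreated WT. Krt19, 1 of the 6, went the other way, with 243 and 221 scaled counts in UTP-treated KO and 260 and 241 in untreated KO. It had 146 and 132 in UTP-treated WT and 79 and 176 in untreated WT. In UTP-treated WT, Kcnk1 thus exceeded untreated pool 2 by little and untreated pool 1 by much, and the part of epithelial cells was not tested. Cacna1d, the L-type pore Cav1.3, had 50 and 55 scaled counts with UTP and 135 and 79 without. Kcnmb1, the beta-1 subunit of the large-conductance channel in smooth muscle, had 21 and 19 with UTP and 58 and 29 without. The fold rule is a ratio of means with no test, and without pool 1 of untreated WT it took 5 genes, without pool 2 of that group 15.

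In P2Y2 KO cADSC no ion channel gene passed the test with UTP. edgeR called 0 of 97, 9 of them (9.28%) had an unadjusted p under 0.05 (3 higher and 6 lower), beside 7.56% of all genes tested, DESeq2 called 1 gene (Kcnab2) and limma 0. Over all genes tested, 0.0342% were called higher and 0% lower. Kcnab2 had 816 and 835 scaled counts in UTP-treated KO, against 1393 and 1098 in untreated KO (log2 fold change -0.59, SE 0.16, adjusted p = 0.442 by edgeR). Kcnk13 had 181 and 190 with UTP and 333 and 246 without, Kcnk6 216 and 257 with UTP and 377 and 309 without, and Kcnn4 456 and 364 with UTP and 747 and 626 without. The KO groups did not overlap for these 4 genes, which were named because their p was among the lowest in this comparison. Nothing further is read from that lack of overlap. The median of the 11 tested genes of the macrophage list was -0.53 in KO, with 9 below 0, beside 14 of 15 macrophage markers below 0 and none of them called. The fold rule took 1 of 92 ion channel genes (1.09%) in KO, beside 0.88% of all genes above 2-fold and 0.481% below 0.5-fold. It was Kcnip1, a calcium-binding partner of Kv4 channels, with 38 and 15 scaled counts with UTP and 13 and 12 without. The ratio of 2.12 rested on 1 pool.

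**Figure D2:**
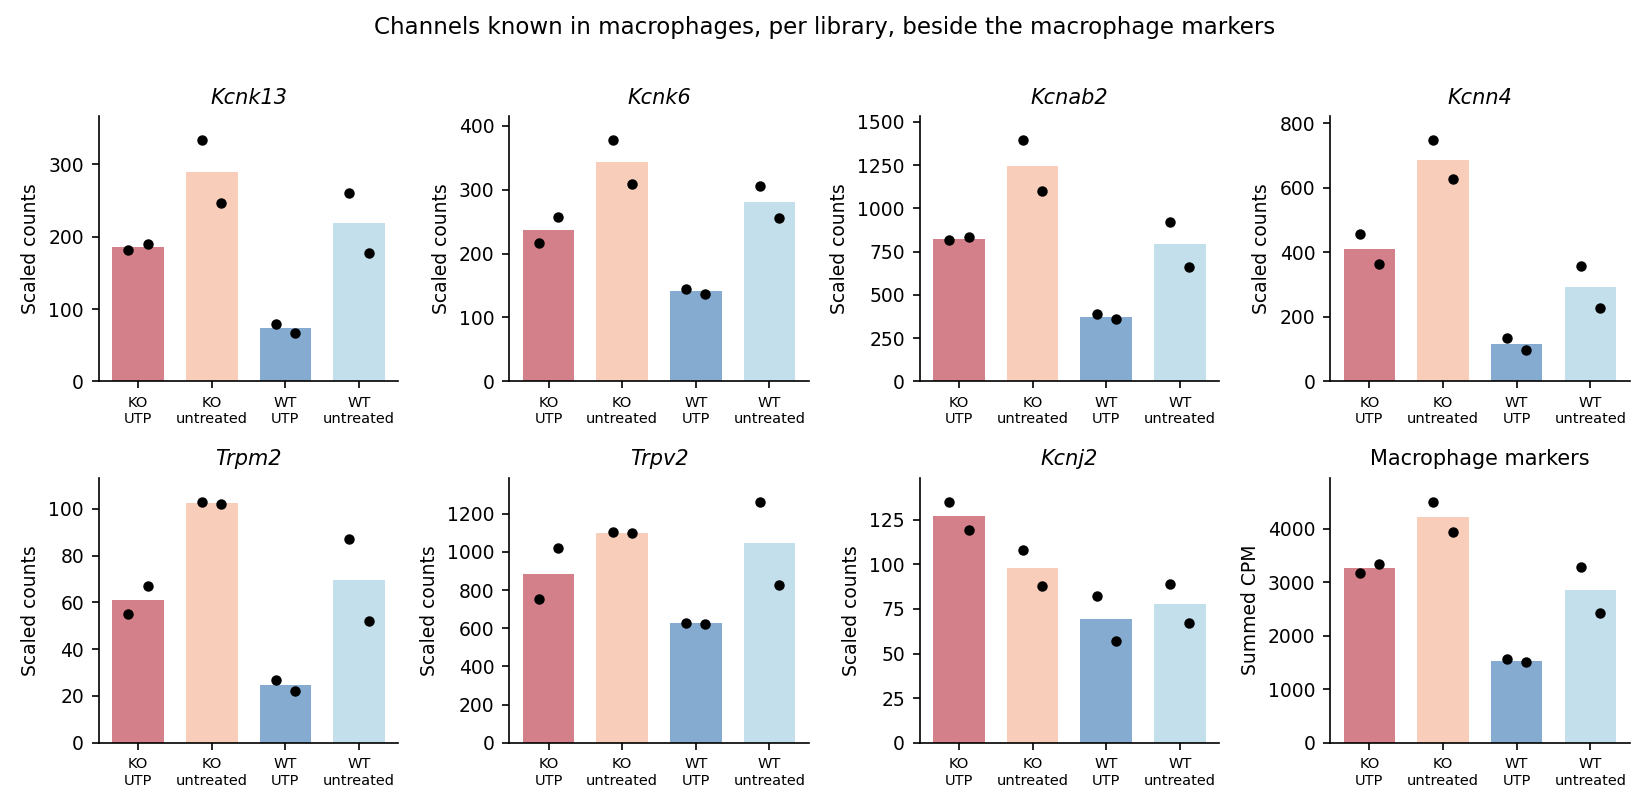
Bars give the mean and points the 2 libraries of each group, in scaled counts for 7 channel genes known from macrophages and in summed CPM for 15 macrophage markers. Kcnk13, Kcnk6, Kcnab2, Kcnn4, Trpm2 and Trpv2 are lowest in UTP-treated WT, where the marker sum is 1500 to 1570 CPM.

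The difference between the UTP effects of the 2 genotypes was tested directly. edgeR, DESeq2 and limma each called 0 of the 97 ion channel genes, and edgeR called 0% of all 17529 genes. 8 ion channel genes (8.25%) had an unadjusted p under 0.05, 2 with a more positive UTP effect in KO and 6 with a more negative one, beside 5.26% of all genes tested. The 2 positive ones were Kcnk13, at 0.94 (SE 0.31) and Cacna1f at 1.57 (SE 0.52), the log2 UTP effect in KO minus that in WT, with adjusted p = 0.837 by edgeR. Kcnip2, a Kv4 partner known from heart muscle, had the most negative difference of the 6, at -1.23 (SE 0.41). It had 37 and 31 scaled counts in UTP-treated KO and 61 and 38 in untreated KO, against 54 and 68 in UTP-treated WT and 31 and 44 in untreated WT. Clcn2, a chloride channel opened by hyperpolarization, showed the same crossing at higher counts, with 311 and 279 in UTP-treated KO and 336 and 361 in untreated KO, against 314 and 331 in UTP-treated WT and 226 and 291 in untreated WT (difference -0.56, SE 0.18, adjusted p = 0.837 by edgeR). An effect past the threshold in WT and not in KO was therefore not shown to differ between them for any ion channel gene. Of the 97 genes, 57 (58.8%) had UTP effects of the same sign in both genotypes, beside 61.3% of all genes tested.

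**Figure D3:**
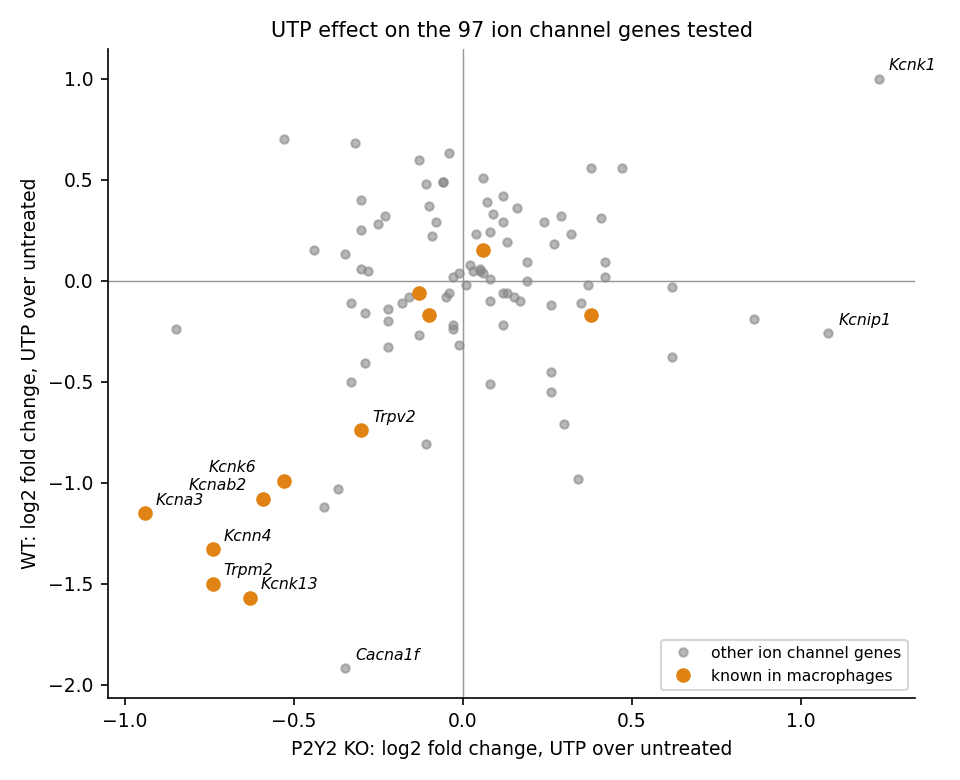
Each point is 1 of the 97 ion channel genes tested, with its log2 fold change for UTP over untreated in KO on the x axis and in WT on the y axis; orange marks the 11 genes known from macrophages. Kcnk13 stands at -0.63 in KO and -1.57 in WT, and most other genes lie near 0 on both axes.

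More ion channel genes differed between genotypes than with UTP. In untreated cells 18 ion channel genes were higher in libraries labelled P2Y2 KO and 7 were lower, 18.6% and 7.22% of the 97, beside 10.5% and 10.2% of all genes tested. With UTP, 17 were higher and 5 lower, 17.5% and 5.15%, beside 9.52% and 7.90% of all genes. The medians of the 97 genes were 0.17 without and 0.13 with UTP, against 0.02 and 0.00 over all genes. Each comparison had its own libraries, but pools of the same number in KO resembled each other with and without UTP: Ddx3y, a Y-linked gene, had 1779 and 920 scaled counts in pools 1 and 2 of UTP-treated KO and 1818 and 1089 in those of untreated KO, and the adipocyte gene Adipoq had 290 and 718 with UTP and 320 and 882 without. The comparisons are therefore not given as independent of each other. In both, 10 genes were called higher (55.6% of those called untreated and 58.8% of those called with UTP, beside 52.7% and 58.2% for all genes), among them Scn7a, Scn3b, Kcnn4, Kcnab2, Kcnq1, Trpm5, Cacna1g, Clcn6 and Clcn7. Piezo2, Cacna2d1 and Cacna1c were called lower in both (42.9% and 60.0%, beside 52.7% and 68.0% for all genes). Of the 97 genes, 75 (77.3%) had the same sign of the genotype difference with and without UTP, beside 78.4% of all genes tested. The counts depended on single pools: leaving out each library in turn gave 4 to 20 genes in untreated cells, and 2 to 26 with UTP. In untreated cells the count was 4 without pool 1 of untreated KO, 12 without pool 2 of untreated KO or either pool of UTP-treated WT, and 16 without pool 1 of untreated WT. With UTP it was 7 without pool 1 and 10 without pool 2 of UTP-treated KO, and 5 without pool 1 and 2 without pool 2 of UTP-treated WT. With Xist as a covariate the count was 8 in untreated cells and 22 with UTP. In the untreated comparison, the part of the sex of the pools was not tested beyond this covariate.

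Of the 7 sodium channel genes tested, 3 were called higher in KO in both comparisons, beside 10.5% of all genes without UTP and 9.52% with UTP. None was called lower, and 2 of the 7 had a log2 difference below 0 in each comparison. Scn7a, the sodium sensor Nax, had 963 and 1005 scaled counts in UTP-treated KO and 1009 and 860 in untreated KO, against 465 and 422 in UTP-treated WT and 371 and 380 in untreated WT. No KO library overlapped a WT library. The log2 difference was 1.31 (SE 0.09, adjusted p = 0.000428 by edgeR) in untreated cells and 1.15 (SE 0.09, adjusted p = 0.000676) with UTP. It passed the test under all 17 alternatives in both comparisons. Scn3b, a beta subunit that alters sodium channel gating, had 1030 and 800 in UTP-treated KO and 911 and 769 in untreated KO, against 571 and 628 in UTP-treated WT and 483 and 570 in untreated WT. It rose by 0.67 (SE 0.13, adjusted p = 0.0131 by edgeR) in untreated cells and by 0.61 (SE 0.13, adjusted p = 0.0175) with UTP. The pore gene Scn2a did not pass, and had 116 and 118 scaled counts in UTP-treated KO and 126 and 140 in untreated KO, against 139 and 146 in UTP-treated WT and 168 and 139 in untreated WT.

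Piezo2 and 2 genes of L-type calcium channels, Cacna1c and Cacna2d1, were lower in KO. Piezo2, the stretch-activated channel of touch neurons, had 1115 and 1270 scaled counts in UTP-treated KO and 1099 and 1355 in untreated KO, against 1900 and 1782 in UTP-treated WT and 2108 and 2247 in untreated WT. It fell by 0.83 on the log2 scale (SE 0.11, adjusted p = 0.00352 by edgeR) in untreated cells and by 0.62 (SE 0.11, adjusted p = 0.00765) with UTP, with every KO library under every WT library. Piezo1, its more abundant relative, had higher values in KO, with 11284 and 10442 in UTP-treated KO and 10814 and 11421 in untreated KO, against 9343 and 9419 in UTP-treated WT and 8832 and 9743 in untreated WT. It was higher by 0.26 (SE 0.07, adjusted p = 0.0308 by edgeR) in untreated cells, and missed the test with UTP (0.21, SE 0.07, adjusted p = 0.0597). Cacna2d1, the alpha-2-delta subunit that gabapentin binds, had 650 and 701 in UTP-treated KO and 601 and 643 in untreated KO, against 865 and 846 in UTP-treated WT and 872 and 917 in untreated WT. Its log2 differences were -0.53 (SE 0.07, adjusted p = 0.00429 by edgeR) without and -0.34 (SE 0.07, adjusted p = 0.0170) with UTP. Cacna1c, the L-type pore Cav1.2 of smooth and heart muscle, had differences of -0.36 (SE 0.10, adjusted p = 0.0389 by edgeR) without UTP and -0.41 (SE 0.10, adjusted p = 0.0260) with UTP, and was no longer past the threshold in 10 and 5 of 17 alternatives. Those of the untreated comparison include DESeq2 and the replicate number as a block. Cacna1g, the T-type pore, went against them at 0.30 (SE 0.08, adjusted p = 0.0271 by edgeR) and 0.31 (SE 0.08, adjusted p = 0.0271). With UTP, neither Piezo2 nor Cacna2d1 passed without pool 1 of UTP-treated KO or without either pool of UTP-treated WT, and Cacna2d1 did not pass with DESeq2, while both passed under all 17 alternatives in untreated cells.

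**Figure D4:**
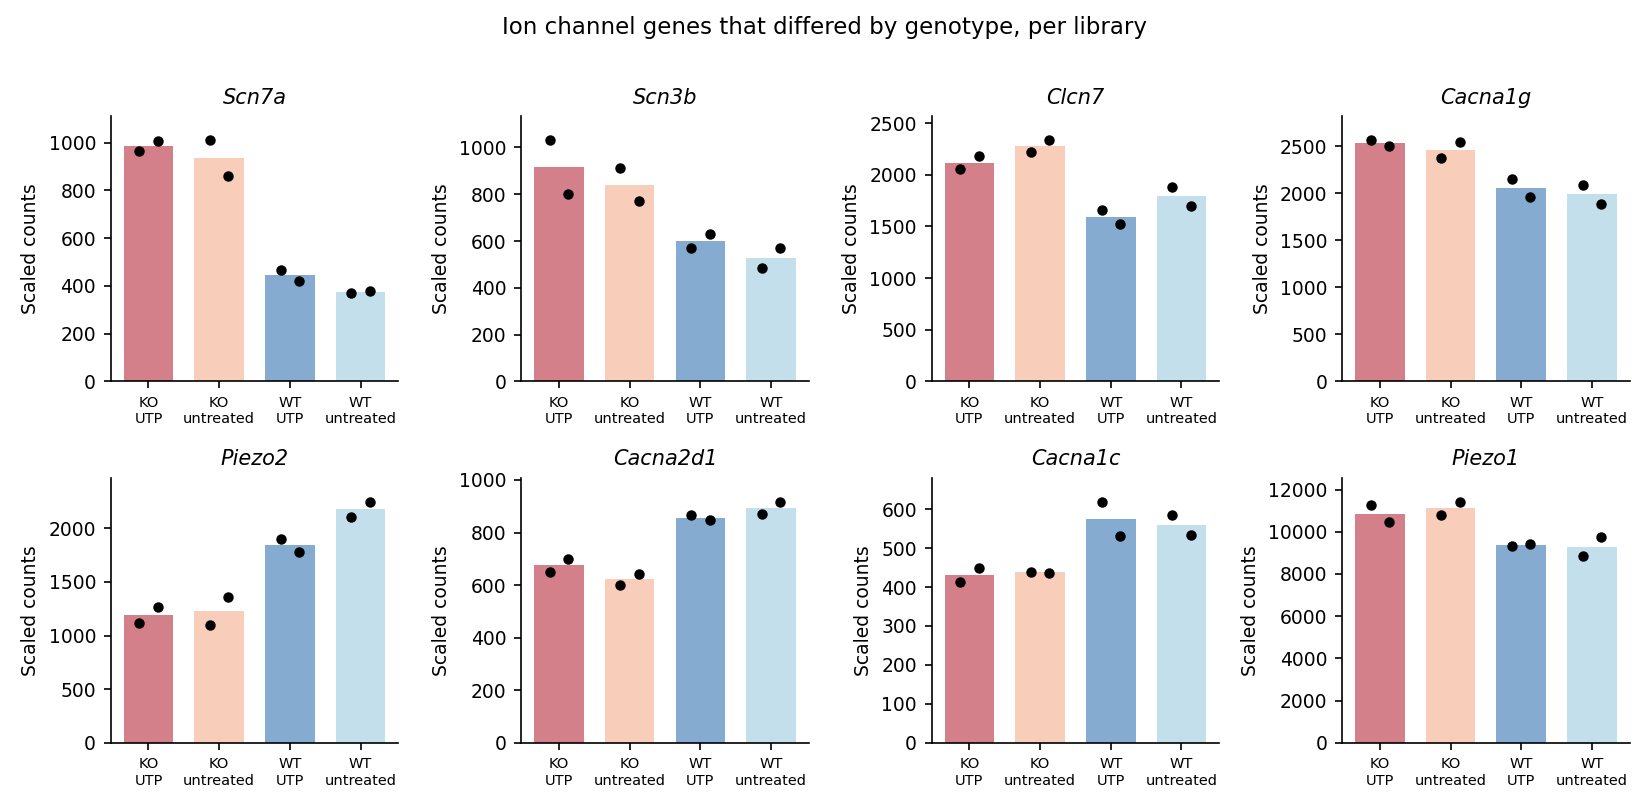
Bars give the mean and points the 2 libraries of each group in scaled counts for 8 ion channel genes called in a genotype comparison. Scn7a lies at 860 to 1009 in KO and at 371 to 465 in WT, whereas Piezo2 lies at 1099 to 1355 in KO and at 1782 to 2247 in WT.

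Among the calcium channel beta subunits, Cacnb3 and Cacnb1 were higher in untreated KO and Cacnb2 was lower. Cacnb3 had 2281 and 2061 scaled counts in untreated KO, against 1494 and 1784 in untreated WT (log2 difference 0.40, SE 0.10, adjusted p = 0.0294 by edgeR). Cacnb2 had 40 and 39 in untreated KO, against 59 and 67 in untreated WT (-0.67, SE 0.17, adjusted p = 0.0301 by edgeR). With UTP none of the 3 passed, and Cacnb3 had 2492 and 2108 in KO, against 1963 and 2155 in WT, with overlap. Whether their genotype difference itself differed with UTP is the interaction test above, which called no gene.

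Some genes of the macrophage list were called higher in KO. Whether their genotype difference itself differed with UTP is again the interaction test, which called none of them (adjusted p = 0.837 for Kcnk13, Kcnk6, Kcnab2, Kcnn4 and Trpm2 by edgeR). Kcnn4 had 456 and 364 scaled counts in UTP-treated KO against 135 and 98 in UTP-treated WT (log2 1.82, SE 0.25, adjusted p = 0.00361 by edgeR), and 747 and 626 in untreated KO against 359 and 226 in untreated WT (1.23, SE 0.22, adjusted p = 0.00927). Kcnab2 was higher by 1.15 (SE 0.17, adjusted p = 0.00419 by edgeR) with UTP and by 0.65 (SE 0.16, adjusted p = 0.0242) without. Kcnk13 (1.34, adjusted p = 0.00792), Trpm2 (1.32, adjusted p = 0.0200), Kcnj2 (0.87, adjusted p = 0.0279) and Kcnk6 (0.75, adjusted p = 0.0146) were called with UTP by edgeR and not without. Kcnj2 was the only one of them whose UTP-treated KO pools, 135 and 119 scaled counts, stood above untreated KO pools of 108 and 88, with 82 and 57 in UTP-treated WT and 89 and 67 in untreated WT. Of the 11 tested genes of the list, 7 were called higher with UTP (median 0.75) and 3 without (median 0.33), beside 9.52% and 10.5% of all genes. None was called lower, and 1 of the 11 had a log2 difference below 0 in each comparison. Of the 15 macrophage markers, 13 and 6 were called higher in the same comparisons. Leaving out each library in turn moved the median with UTP between 0.64 and 1.15. Because the list was chosen with earlier results of these data known, its counts and medians here are a description. The part of macrophage content in this difference was not tested.

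Several further potassium channel genes were called by genotype at low counts, while the auxiliary subunits Kcne4 and Kcnab1 were called at higher counts. Kcnh3 had 110 and 78 scaled counts in untreated KO, against 34 and 52 in untreated WT (log2 1.12, SE 0.24, adjusted p = 0.0160 by edgeR). Kcng4, a silent subunit that joins Kv2 pores, had 31 and 23 in untreated KO, against 10 and 11 in untreated WT. It was called higher, and lost the call in 9 of 16 alternatives. Kcnq1, a pore of heart and epithelia, had 26 and 26 in UTP-treated KO and 34 and 30 in untreated KO, against 14 and 13 in UTP-treated WT and 19 and 17 in untreated WT. It was called in both comparisons, with differences of 0.94 (SE 0.26) with UTP and 0.82 (SE 0.24) without, and lost the call in 10 and 13 of 16 alternatives, the replicate number as a block among them in both. Its locus overlaps the antisense RNA Kcnq1ot1, and the strand setting of the read counting is not given in the sources used here, although the library kit keeps strand. Kcnd3 and Kcne4 were called higher in untreated KO (log2 0.56 and 0.32), and Kcnab1, the beta-1 subunit, was lower in untreated KO (-0.29). Kcne4 had 739 and 854 scaled counts in untreated KO, against 616 and 663 in untreated WT. Kcnab1 had 1124 and 1253 in untreated KO, against 1389 and 1510 in untreated WT. Kcnd3 and Kcnab1 each lost the call in 10 of 17 alternatives. Kcne4 lost it with DESeq2, Xist as a covariate, the compared groups alone and the replicate number as a block, among others. Kcnip1 was called with UTP at 1.81 (SE 0.52) from 38 and 15 scaled counts in KO against 10 and 5 in WT, a call lost in 9 of 16 alternatives. It shares its locus, on the other strand, with Kcnmb1. Cacna1f, at 14 and 11 in KO against 4 and 4 in WT with UTP, was called under 1 CPM.

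Tandem-pore channels split by gene. Kcnk13 and Kcnk6 were higher in UTP-treated KO, whereas Kcnk2 (TREK-1), a channel opened by stretch and lipids, had 14 and 17 scaled counts in UTP-treated KO, against 32 and 36 in UTP-treated WT (log2 -1.12, SE 0.32, adjusted p = 0.0465 by edgeR). The Kcnk2 call was lost in 9 of 16 alternatives. Kcnk1 was lower with UTP from 0 and 5 in KO against 31 and 25 in WT (adjusted p = 0.0446 by edgeR). Its fitted fold rests on few counts. The sum of the epithelial markers, 25.9 and 22.2 CPM in UTP-treated KO against 139 and 136 CPM in UTP-treated WT, differed in the same direction. All but Krt19 were called lower (5 of 6), and their part was not tested. Kcnk3 (TASK-1) had 44 and 74 in untreated KO against 29 and 22 in untreated WT and did not pass (adjusted p = 0.0627 by edgeR).

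Of the 7 ClC genes tested, 3 were called higher and 1 lower in untreated KO, and 2 higher and 0 lower with UTP. Over all genes tested, 10.5% and 10.2% were called higher and lower without UTP, and 9.52% and 7.90% with UTP. Clcn2 was called higher in untreated KO at 0.43 (SE 0.13, adjusted p = 0.0449 by edgeR). It lost the call with DESeq2, Xist as a covariate and the compared groups alone, among others. Clcn7, the lysosomal exchanger, had 2056 and 2179 scaled counts in UTP-treated KO and 2225 and 2333 in untreated KO, against 1655 and 1524 in UTP-treated WT and 1886 and 1699 in untreated WT. It was higher by 0.42 (SE 0.08, adjusted p = 0.00894 by edgeR) with UTP and by 0.34 (SE 0.08, adjusted p = 0.0178) without. Clcn6, an exchanger of late endosomes, was higher by 0.40 (SE 0.09) and 0.41 (SE 0.09), and Clcn1, the chloride channel of skeletal muscle, was lower in untreated KO at 14 and 23 scaled counts against 39 and 39 in untreated WT (log2 -1.07, SE 0.28, adjusted p = 0.0316 by edgeR), a call lost in 8 of 16 alternatives. Trpm5, a calcium-activated cation channel known from taste cells, had 196 and 192 in UTP-treated KO and 179 and 170 in untreated KO, against 116 and 145 in UTP-treated WT and 91 and 113 in untreated WT, and was called in both comparisons (0.57 and 0.77). Of the anoctamins only Ano4 was called, lower in untreated KO at 10 and 18 scaled counts against 32 and 33 in untreated WT (log2 -1.21, SE 0.35, adjusted p = 0.0432 by edgeR). That call was lost in 11 of 16 alternatives, the replicate number as a block among them. Ano6 had log2 differences of -0.08 with UTP and -0.10 without, and Ano10 of 0.06 and -0.12, none of them past the test.

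**Figure D5:**
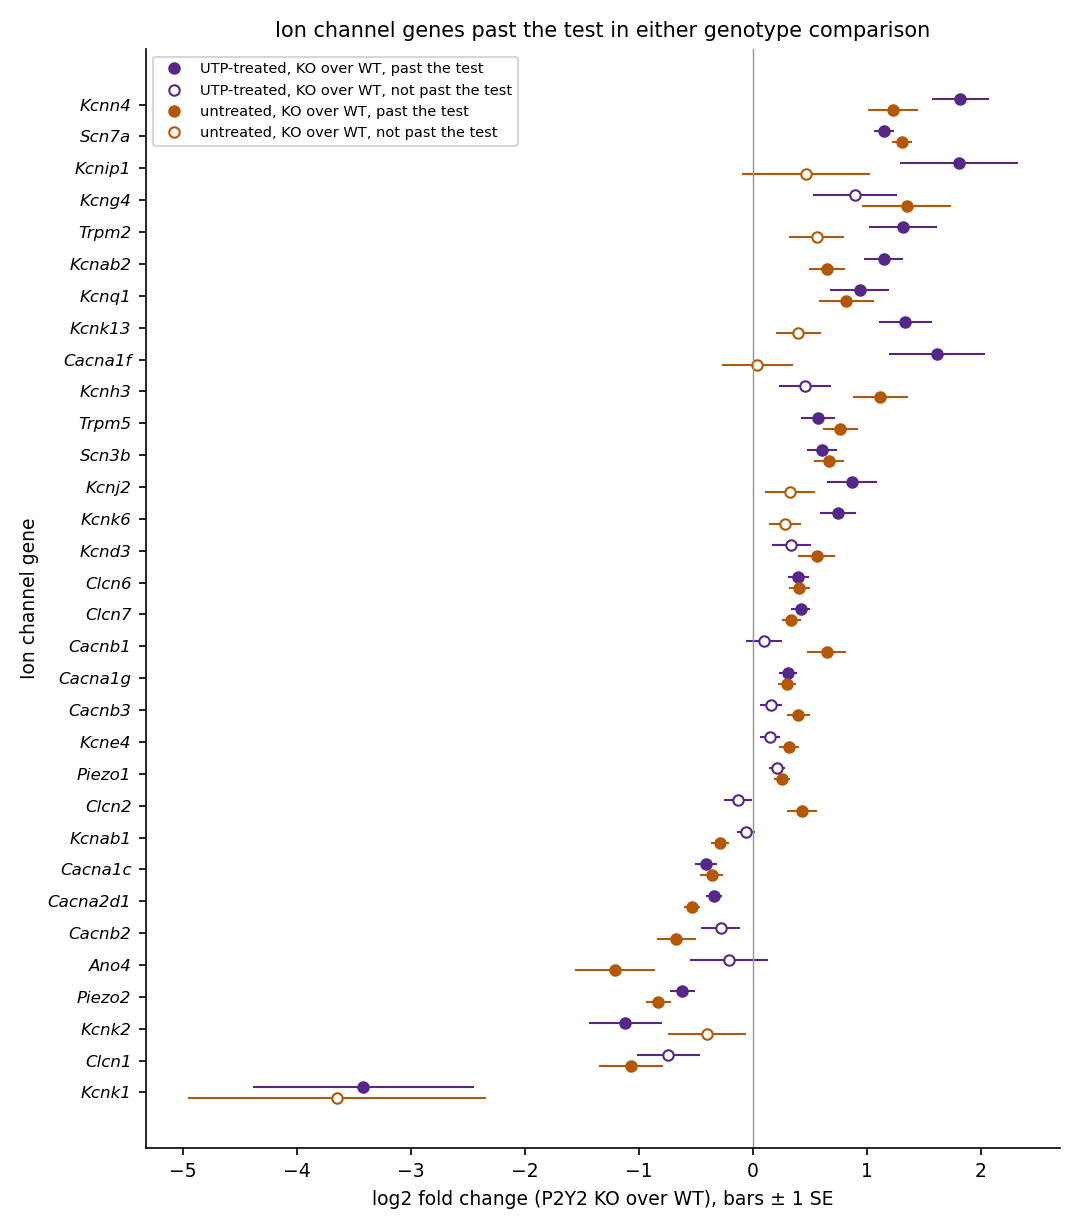
Points give the log2 difference of KO over WT with its SE for 32 of the 34 ion channel genes called in either genotype comparison, with UTP in purple and without in orange-brown; open points did not pass the test. Kcnn4 and Scn7a lie at the top with both points filled, and Piezo2, Cacna2d1 and Cacna1c lie below 0 with both filled.

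Position and company were also described. P2ry2 lies on chromosome 7, from 100996568 to 101012866 (GRCm38). Of the 14 tested ion channel genes on chromosome 7, 5 (35.7%) were called higher in KO in at least 1 of the comparisons (among them Kcnk6, Kcnn4, Kcnq1 and Trpm5) and none lower. The share was 25.8% over all 97 ion channel genes, 18.9% over all 1391 genes tested on chromosome 7 and 14.5% over all genes tested, and with 5 genes nothing is read from it. Kcne3, from 100176502 to 100184869, is the member nearest to P2ry2 and had 9 and 14 scaled counts in UTP-treated KO and 7 and 6 in untreated KO, against 5 and 5 in UTP-treated WT and 8 and 3 in untreated WT, under the minimum for a test. Linkage to the targeted locus and the genotype cannot be told apart here.

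Other ion transport genes were also called. Of 84 pumps, exchangers and further channels listed, 69 were tested. UTP lowered 1 of them in WT (1.45%, beside 1.08% of all genes tested). It was Slc12a7, a potassium-chloride cotransporter, with 537 and 570 scaled counts in UTP-treated WT against 905 and 778 in untreated WT. Its log2 fold change was -0.60 (SE 0.10, adjusted p = 0.0372 by edgeR). In KO cells edgeR called 0 of the 69 with UTP, and 6 had an unadjusted p under 0.05 (8.70%, beside 7.56% of all genes). Between genotypes, 13 were higher and 5 lower in untreated cells (18.8% and 7.25%, beside 10.5% and 10.2% of all genes), and 12 were higher and 6 lower with UTP (17.4% and 8.70%, beside 9.52% and 7.90%). Among them were Hvcn1, the proton channel of phagocytes, with 1331 and 1272 scaled counts in UTP-treated KO against 832 and 770 in UTP-treated WT (0.70, SE 0.07, adjusted p = 0.00168 by edgeR), P2rx4, an ATP-gated cation channel, with 1417 and 1399 against 876 and 885 (0.68, SE 0.08, adjusted p = 0.00251), and Orai2, a store-operated calcium pore, with 1090 and 977 against 735 and 748 (0.48, SE 0.07, adjusted p = 0.00408). The 6 lower with UTP included Hcn4, with 124 and 210 scaled counts in UTP-treated KO against 309 and 315 in UTP-treated WT (-0.90, SE 0.25, adjusted p = 0.042 by edgeR). Lrrc8e was another, with 24 and 34 against 60 and 50 (-0.92, SE 0.24, adjusted p = 0.0336 by edgeR). These genes were named after their values were seen. Of the 15 macrophage markers, 13 were called higher in KO with UTP and 6 without, and their part in these values was not tested.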

How the data were processed

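RNA was sequenced from 8 libraries of mouse cADSC (stranded, paired-end, poly(A)-selected), 2 for each of 4 groups. Per the labels, the submitters' processing notes name Trimmomatic, STAR, HTSeq and the build GRCm38.p4 (mm10), without versions of the tools. As deposited, each gene has an estimated count, a read count that the authors scaled with 1 factor per library and rounded up. Undoing that factor gave 18599802 to 22018287 reads per library. The deposited averages and ratios of groups are the authors' own comparison and were not used. The strand setting of the counting is not given in the sources used here.

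Genes above 0.5 CPM in at least 2 libraries (17529 genes) entered edgeR's quasi-likelihood test (edgeR 4.0.16 in R 4.3.3) with TMM normalization, 4 group means over all 8 libraries, and Benjamini-Hochberg adjustment over all genes at 0.05. The scaled counts were used as counts. CPM per kb used exon lengths of GENCODE M21. The test was tried on simulated data beforehand. Alternatives were DESeq2 1.42.0, limma 3.58.1, other minimums, no TMM, Xist as a covariate, the compared groups alone, the replicate number as a block, and each library left out. A channel gene was named with values if it was called, at 1 CPM or more in a group and without overlap (up to 10 in each direction), if it was among the 5 of lowest p where none was called, if it led its class (up to 3), or if it passed the fold rule (the study's methods do not say in which samples its CPM minimum applies); Kcna3, Kcne3, Kcnk3, Kcnma1, Scn2a and any others outside the rule were named after their values were seen. The ion channel genes and all lists were chosen with earlier results of these data known. Nothing says that libraries came from separate mice, so p-values measure the spread between these pools, which may be technical. Promoter windows were the 250 bases before RefSeq starts (GRCm38.p6). Some genes are not reported here by name, and they remain in the counts and medians.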

Additional observations from a re-analysis of the deposited data

How the results depend on the processing

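The 3 genes called with UTP in WT became 6 with DESeq2, 6 with limma, 10 with no minimum, 0 with Xist as a covariate and 0 with the compared groups alone. Leaving out each library gave 0 to 14. In KO, the 0 genes became 1 with DESeq2 and 2 with no minimum, and 0 to 1 when a library was left out. The difference between the UTP effects called 0 genes under every alternative run. Between genotypes in untreated cells, 25 genes became 13 with DESeq2, 8 with Xist as a covariate and 6 with the compared groups alone, and 4 to 20 when a library was left out. With UTP, 22 genes became 2 to 26 when a library was left out, and 15 to 30 under the other alternatives. The fold rule took 42 genes in WT with no minimum and 4 with 1 CPM added, against 9, and 30 and 0 in KO, against 1. Leaving out a library gave 5 to 15 in WT and 3 to 5 in KO. The cause was not tested.

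With the replicate number as a block (replicate block), 4, 0, 0, 22 and 22 genes were called with UTP in WT, with UTP in KO, for the difference of effects, and between genotypes without and with UTP. Kcnn4 was the gene gained in WT. Between genotypes, the block lost Ano4, Cacna1c, Kcne4 and Kcnq1 in untreated cells and Kcnq1 with UTP. The labels do not say that a number marks a shared culture. The deviations of same-numbered pools correlated at 0.417 between the KO groups, where pool 1 had 3 scaled counts of Xist with UTP and 2 without, and pool 2 had 4418 with UTP and 4304 without. The other 5 pairs of groups lay between -0.127 and 0.122. Over the named genes and the medians of the ion channel genes tested, 745 values kept their side of the threshold. A further 191 were no longer past it, and 15 newly passed it. No log2 value of a named gene reversed its sign, but some of the medians did. Leaving out each library moved the median with UTP between -0.04 and 0.03 in WT and between -0.04 and 0.01 in KO. The median difference of effects moved between -0.03 and 0.09. With 2 pools per group, small differences in genes under 1 CPM were not detectable.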

Other observations

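Among the 71 ion channel genes that averaged at least 1 CPM, 5 differed by more than 1.5-fold between the 2 pools of UTP-treated KO, 10 in untreated KO, 2 in UTP-treated WT and 12 in untreated WT. The median ratio of the higher to the lower pool was 1.11 in UTP-treated KO, 1.167 in untreated KO, 1.098 in UTP-treated WT and 1.147 in untreated WT. Kcnk5 (TASK-2), a tandem-pore channel opened by alkaline pH, had the widest ratio, 2.66 in untreated WT. It had 72 and 64 scaled counts in UTP-treated KO, 80 and 66 in untreated KO, 94 and 80 in UTP-treated WT, and 41 in pool 1 and 109 in pool 2 of untreated WT. Ano1, the calcium-activated chloride channel of smooth muscle and epithelia, had 54 and 110 in untreated WT, and Kcnj8 had 19 and 47. All 3 were lower in pool 1, the library without Y-linked reads. Other genes past 1.5-fold in untreated WT went both ways. Kcnk2 and Kcnh3 were lower in pool 1, and Kcnmb1, Cacna1d, Trpm2, Kcnn4 and Trpv2 were higher in it.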
